A study of Homo sapiens with 6 samples.

Results

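The miR-17-92 cluster is a row of 6 microRNA hairpins on chromosome 13, carried by 1 host gene, MIR17HG. The cluster was followed here through the 10 mature arms that are made only from this locus, chosen by name among the 1000 mature miRNAs of the count table. The arms miR-19b-3p and miR-92a-3p, which a related cluster on chromosome X also makes, were kept apart and are given for comparison. Mature miRNAs were sequenced in 3 biological replicates of wild type (WT) HEK 293T, a cell line of transformed embryonic kidney cells from human, and in 3 of a HEK 293T TENT3A/B double knockout strain. TENT3A and TENT3B are the terminal uridylyltransferases TUT4 and TUT7, enzymes that add uridines to the 3′ ends of RNAs, and the strain is called ΔTUT4/7. Neither strain was treated, and both were grown in the same medium. The comparison asks how the loss of both enzymes altered the abundance of mature miRNAs. The ΔTUT4/7 cells are 1 strain, and no source used here says whether they are 1 clone.

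The miR-17-92 primary transcript is cut into hairpins in the nucleus by the DROSHA and DGCR8 complex, and each hairpin is cut by DICER into a duplex of a 5p and a 3p arm. Usually 1 arm is loaded into an Argonaute protein as the guide and the other is removed, and the guide finds its target mRNAs mainly through its seed. The cluster is transcribed under the control of MYC and E2F factors, is amplified in lymphomas, and promotes proliferation and survival, in part through repression of the cell death gene BCL2L11. TUT4 and TUT7 act on precursor miRNAs, where a single added uridine assists the processing of group II precursors and a longer tail marks a precursor for decay. None of the 6 hairpins of the cluster is in the study's list of group II miRNAs.

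The mature sequences of the 10 arms are shown because the reads were trimmed to 18 nt, so that their letters decide which arms could be told apart. They are given 5′ to 3′ from RefSeq, with the seed (bases 2 to 8) in capitals.
hsa-miR-17-5p: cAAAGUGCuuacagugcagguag
hsa-miR-17-3p: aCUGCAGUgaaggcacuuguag
hsa-miR-18a-5p: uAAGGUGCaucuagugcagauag
hsa-miR-18a-3p: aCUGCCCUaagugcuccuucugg
hsa-miR-19a-5p: aGUUUUGCauaguugcacuaca
hsa-miR-19a-3p: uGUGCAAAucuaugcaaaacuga
hsa-miR-20a-5p: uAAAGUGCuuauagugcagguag
hsa-miR-20a-3p: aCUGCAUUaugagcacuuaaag
hsa-miR-19b-1-5p: aGUUUUGCagguuugcauccagc
hsa-miR-92a-1-5p: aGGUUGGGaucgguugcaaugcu

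The hairpins follow each other on the plus strand of chromosome 13 (GRCh38), from chr13:91350605-91350688 for MIR17 to chr13:91351314-91351391 for MIR92A1, over 787 nt in all. In GENCODE 44 the host gene MIR17HG spans chr13:91347686-91397592. Of its 16 annotated transcripts, 11 run across the hairpins, which are exonic in 3 of these and intronic in 8. The seed AAAGUGC is carried by miR-17-5p and miR-20a-5p, and also by 4 arms of other loci in the table, namely miR-106a-5p, miR-20b-5p, miR-106b-5p and miR-93-5p. miR-19a-5p and miR-19b-1-5p share the seed GUUUUGC with miR-19b-2-5p of chromosome X, and miR-19a-3p shares GUGCAAA with miR-19b-3p. Of the other arms, miR-18a-5p has the seed AAGGUGC in common with miR-18b-5p, while the seeds of miR-17-3p, miR-18a-3p, miR-20a-3p and miR-92a-1-5p occur in no other listed miRNA with a sequence.

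2 of the 10 arms cannot be told from a chromosome X arm by their first 18 nt, so their counts rest on how the quantification divided shared reads. miR-18a-5p is identical to miR-18b-5p over these bases, as shown by the sequences below.
hsa-miR-18a-5p: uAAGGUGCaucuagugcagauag
hsa-miR-18b-5p: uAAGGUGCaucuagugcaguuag
miR-19b-1-5p is identical over these bases to miR-19b-2-5p (aGUUUUGCagguuugcauuuca). The counts given to miR-18b-5p were 0.431% to 0.654% of those of miR-18a-5p in the 6 libraries, and those given to miR-19b-2-5p were 0% to 0.717% of those of miR-19b-1-5p. miR-17-5p differs from miR-106a-5p at 1 of the 18 bases and from miR-20a-5p at 2, and miR-19a-3p differs from miR-19b-3p at 1.

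The libraries held 4688610 to 5073921 counts in ΔTUT4/7 and 4338558 to 7967606 in WT cells. Values are CPM, a count divided by the library total and multiplied by 1e+06. The counts are estimates that the quantification gave to each arm, and were not scaled by its length. A CPM is a share of a total in which let-7 and miR-98 together weighed differently, with 19.2% to 19.7% in ΔTUT4/7 and 5.57% to 6.36% in WT libraries. miR-16-5p went the other way, with 17.5% to 17.8% in ΔTUT4/7 and 23.5% to 28.0% in WT libraries. Over the whole table, WT replicate 3 stood apart from the other WT libraries. Of the 391 miRNAs with a mean above 10 CPM, 24 differed at least 2-fold between WT replicate 3 and the mean of the other WT libraries, against 3 to 7 for each of the other 5 libraries within their own strain. Of the 10 arms of the cluster, 3 were apart in this way in WT replicate 1, 1 in WT replicate 2 and 1 in WT replicate 3, and 0 in each ΔTUT4/7 library. No defining miRNA marker of HEK 293T cells was at hand. Of 9 markers of liver, blood, muscle and neurons, 4 had a row in the table, and their summed level was 33.5 to 39.0 CPM in ΔTUT4/7 and 54.6 to 104 CPM in WT libraries, most of it from miR-142-3p of blood cells. Whether this difference bears on the results was not tested. In these bulk libraries, a change in the number of cells that make an arm and a change in its amount per cell cannot be told apart.

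The cluster was more abundant in ΔTUT4/7 cells, and its arms differed in the size of their fold changes. Together the 10 arms held 9.08% to 9.69% of all counts in ΔTUT4/7 and 4.25% to 5.64% in WT libraries. Their summed level was 94789 ± 3418 CPM in ΔTUT4/7 and 50973 ± 7466 CPM in WT cells (SD, n = 3 each), a ratio of 1.86. The gap between the strains was carried largely by miR-20a-5p. The other 9 arms summed to 29266 ± 1233 CPM in ΔTUT4/7 and 19111 ± 6354 CPM in WT cells (SD, n = 3 each), a ratio of 1.53, and WT replicate 3, at 26195 CPM, was close under the lowest ΔTUT4/7 library, at 27872 CPM. The ratio for all 10 arms is one of shares of the total, and it was 2.17 when the let-7 family and miR-98 were left out of the library totals (let-7-free totals). It was 1.91 with TMM scaling and 1.81 with RLE scaling.

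All 10 arms were among the 826 miRNAs tested with edgeR's quasi-likelihood test. An arm was called when it differed at least 2-fold with a Benjamini-Hochberg adjusted p under 0.05. 6 of the 10 arms were called higher in ΔTUT4/7 cells, against 16.5% of all tested miRNAs. None was called lower, against 13.6%. At an adjusted p under 0.05 with no limit on size, 8 of the 10 arms were higher, against 23.2% of all tested. The same 8 arms had all ΔTUT4/7 libraries above all WT libraries, against 28.8% of all tested. No arm had all ΔTUT4/7 libraries below all WT libraries, a pattern seen in 29.5% of all tested. The median log2 fold change of the 10 arms was 1.03, beside 0.01 for all tested miRNAs. The exceptions were miR-17-5p and miR-18a-5p, whose strains overlapped.

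**Figure D1:**
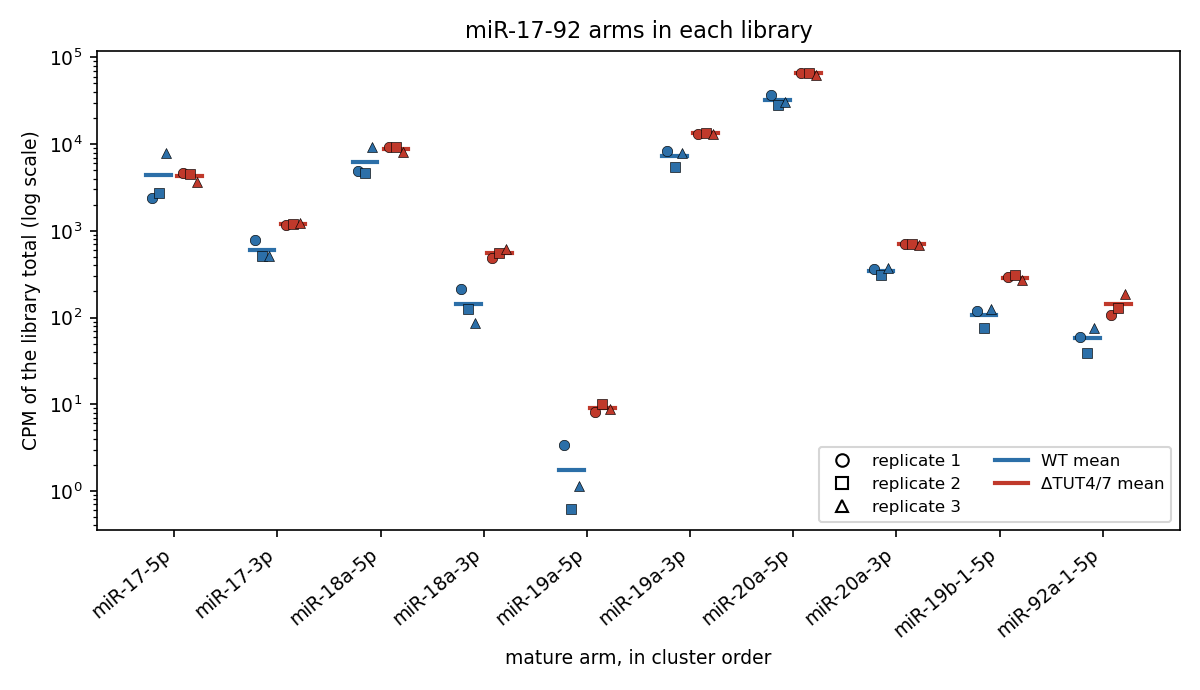
CPM of the library total on a log axis for the 10 arms in cluster order, with 1 point per library (WT blue, ΔTUT4/7 red, symbols for replicates) and a bar at each mean (n = 3). The red points lie above all blue points for 8 arms, while miR-17-5p and miR-18a-5p overlap through WT replicate 3, which is at 7975 and 9227 CPM.

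The most abundant arm was miR-20a-5p, a guide of the AAAGUGC seed. It was at 66862.5, 66731 and 62975 CPM in ΔTUT4/7 replicates 1, 2 and 3 and at 36850.1, 28543 and 30192 CPM in WT replicates 1, 2 and 3. Each ΔTUT4/7 library was far above the highest WT library. This was a log2 fold change of 1.04 (standard error, SE, 0.11, edgeR adjusted p = 1.70e-05), or 2.06-fold. It was just under the limit, at 0.97, without WT replicate 2.

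miR-17-5p, the other arm of the cluster with this seed, varied widely among the WT libraries. It was at 4688, 4529.8 and 3652 CPM in ΔTUT4/7 and at 2402, 2743 and 7975 CPM in WT replicates 1, 2 and 3. WT replicates 1 and 2 were below every ΔTUT4/7 library, and WT replicate 3 was above them all, at 3.10 times the mean of the other WT libraries. With all libraries its log2 fold change was -0.03 (SE 0.35, edgeR adjusted p = 0.957), and its sign turned to 0.02 with TMM scaling and to 0.19 with the let-7-free totals. Without WT replicate 3 it was 0.74 (SE 0.13, edgeR adjusted p = 0.00138).

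miR-18a-5p, a guide with the seed AAGGUGC, showed the same split of the WT libraries. It was at 9209.6, 9213 and 8027 CPM in ΔTUT4/7 and at 4889.8, 4679.6 and 9227 CPM in WT replicates 1, 2 and 3. WT replicate 3 was slightly above the highest ΔTUT4/7 library. Its log2 fold change was 0.49 (SE 0.22, edgeR adjusted p = 0.0866), and 0.88 without WT replicate 3 (SE 0.09, edgeR adjusted p = 8.17e-05). With all libraries kept, it was 0.71 with the let-7-free totals (edgeR adjusted p = 0.0203) and 0.69 with the GC trend removed (edgeR adjusted p = 0.0166). It was 0.57 with a replicate block (edgeR adjusted p = 0.0166) and 0.56 with limma-trend (limma adjusted p = 0.0489). TMM scaling gave 0.54 (edgeR adjusted p = 0.0504) and RLE scaling 0.46 (edgeR adjusted p = 0.0866). miR-18b-5p, whose reads cannot be separated from those of miR-18a-5p, was also highest among WT libraries in replicate 3, at 53.5 CPM against 21.1 and 21.6 CPM.

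miR-19a-3p, with the seed GUGCAAA, is the guide of its hairpin. It was at 13044, 13559 and 13185 CPM in ΔTUT4/7 and at 8395, 5430.4 and 7812.5 CPM in WT replicates 1, 2 and 3. The strains did not overlap. Its log2 fold change of 0.88 (SE 0.15, edgeR adjusted p = 6.78e-04) was under the 2-fold limit, and passed it, at 1.00, without WT replicate 1.

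In the miR-17, miR-18a and miR-19a hairpins the less abundant arm had the larger log2 fold change, while the arms of miR-20a were alike (1.04 and 1.01). It was also larger for miR-19b-1-5p (1.43) than miR-19b-3p (0.68), and slightly for miR-92a-1-5p (1.30) than miR-92a-3p (1.14). The order of these miR-92a arms turned without WT replicate 1 (1.33 against 1.38) and without WT replicate 2 (1.08 against 1.16). Without ΔTUT4/7 replicate 3 they were alike (1.042 and 1.045). In miR-106b-25, a related cluster described below, the less abundant arm had the larger value in miR-93 (0.13 against -0.11). The same was true of miR-25 (0.87 against -0.21), and not of miR-106b. How often this order occurs over all hairpins was not measured. miR-18a-3p was at 492, 550.2 and 612 CPM in ΔTUT4/7 and at 215, 124 and 86.2 CPM in WT replicates 1, 2 and 3. Its lowest ΔTUT4/7 library was more than 2-fold above the highest WT library. miR-18a-3p had a log2 fold change of 1.96 (SE 0.28, edgeR adjusted p = 1.48e-04), or 3.89-fold, and it stayed called under all 16 alternative settings of the fit.

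miR-19a-5p was the rarest arm, with 41, 48 and 41 counts in ΔTUT4/7 replicates 1, 2 and 3 and 15, 5 and 5 counts in WT replicates 1, 2 and 3. In CPM these were 8.08, 9.98 and 8.74 against 3.40, 0.628 and 1.15. For miR-19a-5p the log2 fold change was 2.49, with the largest standard error of the cluster, 0.45 (edgeR adjusted p = 9.69e-04). The size of the change varied with the WT libraries used, at 3.39 without WT replicate 1 and 1.96 without WT replicate 2.

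miR-19b-1-5p, the partner of the shared arm miR-19b-3p, was at 289.9, 309 and 268 CPM in ΔTUT4/7 and at 119, 75.8 and 127 CPM in WT replicates 1, 2 and 3. The strains were apart by more than 2-fold at their nearest libraries. Its log2 fold change was 1.43 (SE 0.20, edgeR adjusted p = 1.56e-04). miR-92a-1-5p, the partner of miR-92a-3p, was at 108, 129 and 189 CPM in ΔTUT4/7 and at 59.4, 39.3 and 74.9 CPM in WT replicates 1, 2 and 3. ΔTUT4/7 replicate 3 was the highest by a wide margin. The log2 fold change of miR-92a-1-5p was 1.30 (SE 0.26, edgeR adjusted p = 0.00187), and 1.04 without ΔTUT4/7 replicate 3.

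The remaining 3p arms lay at the 2-fold limit. miR-20a-3p was at 711, 704 and 687 CPM in ΔTUT4/7 and at 359.9, 309.8 and 373 CPM in WT replicates 1, 2 and 3. Its replicates were the closest of the cluster. miR-20a-3p had a log2 fold change of 1.01 (SE 0.14, edgeR adjusted p = 1.58e-04), and it fell under the limit with RLE scaling, with DESeq2 and without WT replicate 2. miR-17-3p was at 1162, 1209.7 and 1244 CPM in ΔTUT4/7 and at 783, 509.9 and 519 CPM in WT replicates 1, 2 and 3. Its log2 fold change of 0.998 (SE 0.18, edgeR adjusted p = 8.17e-04) missed the limit narrowly, and 7 of the 16 alternative settings called it.

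**Figure D2:**
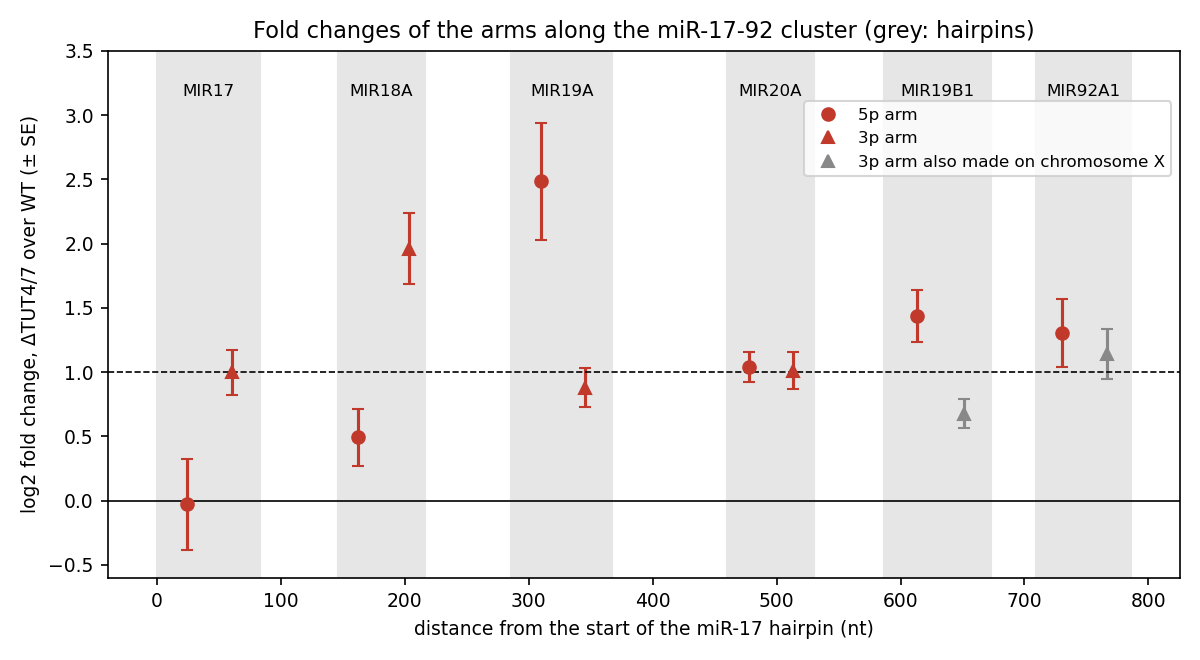
Fitted log2 fold change of ΔTUT4/7 over WT cells (± standard error) for each arm, placed at its distance in nt from the start of the miR-17 hairpin, with hairpins in grey, circles for 5p arms and triangles for 3p arms. The arms of miR-20a lie together at 1.04 and 1.01, whereas those of miR-18a lie at 0.49 and 1.96 and those of miR-19a at 2.49 and 0.88.

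The balance of the arms within a hairpin does not depend on how libraries are scaled. It was given as the 3p counts in percent of 5p and 3p counts together for the 4 hairpins with both arms specific to the cluster, and compared with a 2-sided exact permutation test over the 6 libraries, whose smallest possible p is 0.1. In miR-18a the 3p share was 5.07%, 5.64% and 7.08% in ΔTUT4/7 and 4.21%, 2.58% and 0.926% in WT replicates 1, 2 and 3. The strains did not overlap (exact permutation p = 0.1, 0.2 adjusted over the 4 hairpins), and the difference of 3.36 percentage points stayed between 2.53 and 4.18 points with each library left out. In miR-19a, where nearly all counts are 3p, the 3p share was 99.9265% to 99.9381% in ΔTUT4/7 and 99.9595% to 99.9884% in WT libraries, so the 5p arm took a slightly larger part in ΔTUT4/7 cells (exact permutation p = 0.1, adjusted 0.2).

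The miR-20a and miR-17 hairpins showed no separation. The 3p share of miR-20a was 1.06% ± 0.018 in ΔTUT4/7 and 1.09% ± 0.128 in WT cells (SD, n = 3 each, exact permutation p = 0.8, adjusted 0.8). In miR-17 it was 19.9%, 21.1% and 25.4% in ΔTUT4/7 and 24.6%, 15.7% and 6.11% in WT replicates 1, 2 and 3, a difference of 6.67 points (exact permutation p = 0.3, adjusted 0.4). WT replicates 1 and 3 lay on either side of WT replicate 2. Without WT replicate 3 the difference fell to 1.99 points, and without WT replicate 1 it rose to 11.2 points.

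**Figure D3:**
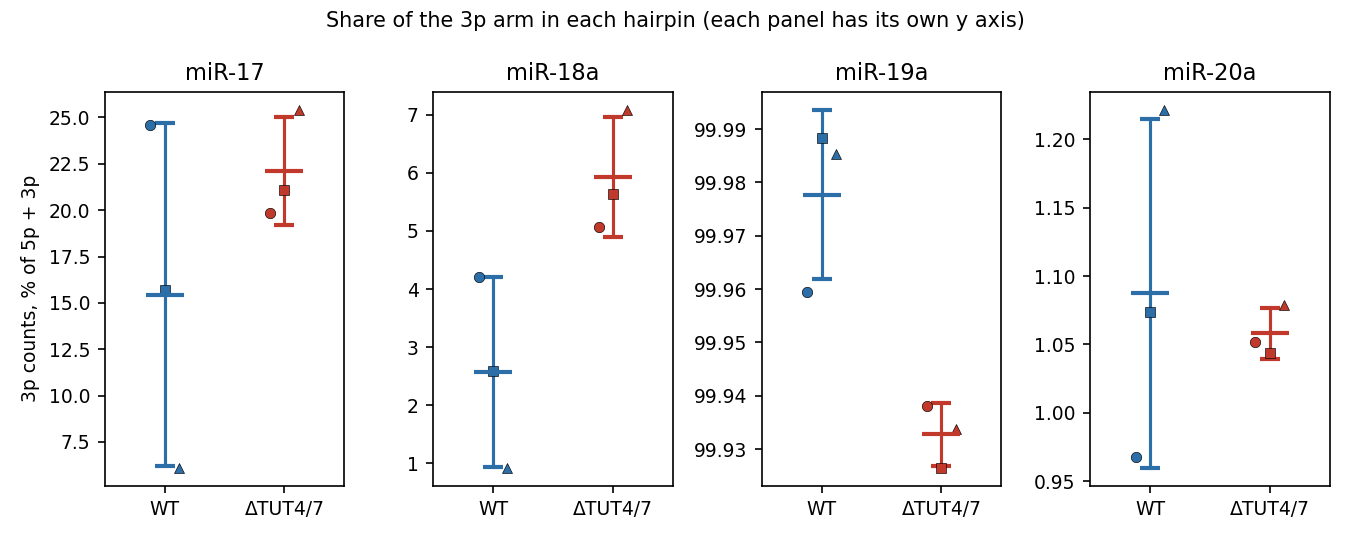
Counts of the 3p arm in percent of 5p and 3p counts for 4 hairpins, each panel on its own axis that does not start at 0, with 1 symbol per library and the mean ± SD of each strain (n = 3). The strains are apart in miR-18a and miR-19a and overlap in miR-17 and miR-20a, and WT replicate 3 (triangle) has the lowest 3p share in miR-17 and miR-18a, at 6.11% and 0.926%.

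miR-20a-5p dominated the cluster in every library. It made up 68.8% to 69.3% of the counts of the 10 arms in ΔTUT4/7 libraries and 68.1%, 67.2% and 53.5% in WT replicates 1, 2 and 3. miR-19a-3p followed with 14.0% ± 0.503 in ΔTUT4/7 and 14.1% ± 1.38 in WT cells (SD, n = 3 each). miR-17-5p made up 4.02% to 4.85% in ΔTUT4/7 and 4.44%, 6.46% and 14.1% in WT replicates 1, 2 and 3. miR-18a-5p reached 16.4% in WT replicate 3, against 9.04% and 11.0% in the other WT libraries. The order of the levels, from miR-20a-5p through miR-19a-3p, miR-18a-5p, miR-17-5p, miR-17-3p, miR-20a-3p, miR-18a-3p, miR-19b-1-5p and miR-92a-1-5p to miR-19a-5p, was the same in the means of both strains. In ΔTUT4/7 cells no neighbours in this order overlapped. In WT cells miR-19a-3p overlapped with miR-18a-5p, miR-18a-5p with miR-17-5p, and miR-18a-3p with miR-19b-1-5p.

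**Figure D4:**
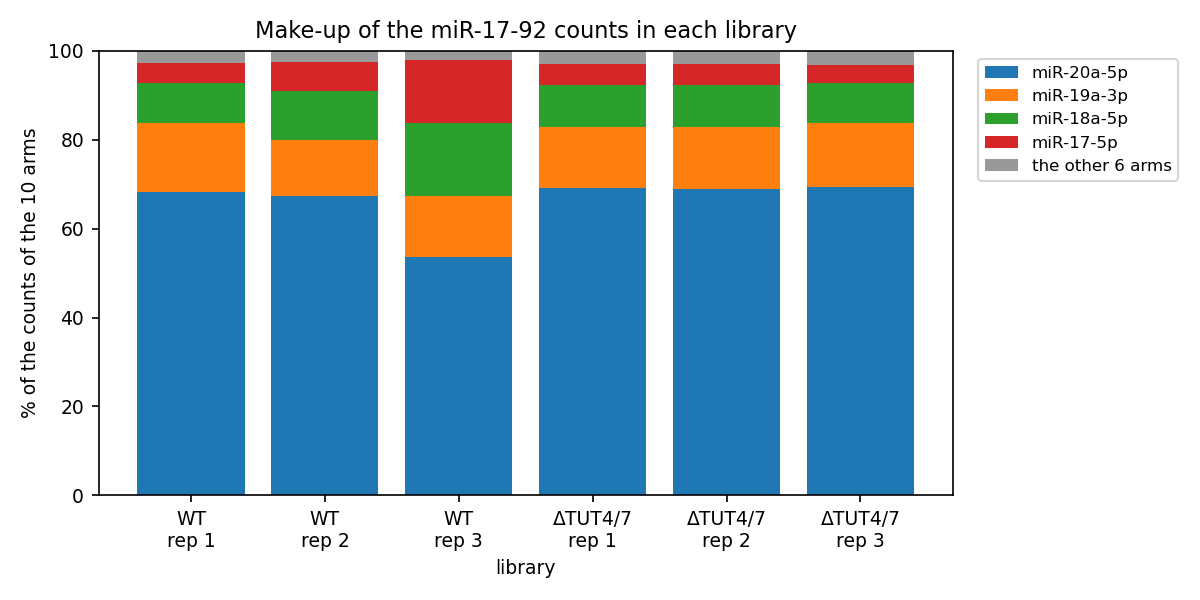
Stacked bars of the counts of the 10 arms in each library, in percent of their sum, from 0 to 100. miR-20a-5p takes between 67.2% and 69.3% in 5 libraries and 53.5% in WT replicate 3, where miR-17-5p and miR-18a-5p take 14.1% and 16.4%.

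The arms shared with chromosome X rose as well. They are shown because they are the guides of the last hairpins of the cluster.
hsa-miR-19b-3p: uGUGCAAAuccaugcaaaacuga
hsa-miR-92a-3p: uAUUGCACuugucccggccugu
miR-92a-3p was at 48594, 54210 and 62223 CPM in ΔTUT4/7 and at 32550.5, 25427 and 16737 CPM in WT replicates 1, 2 and 3, and its log2 fold change was 1.14 (SE 0.20, edgeR adjusted p = 6.48e-04), and 0.92 without WT replicate 3. miR-19b-3p was at 26994 ± 1823 CPM in ΔTUT4/7 and 16871 ± 1854 CPM in WT cells (SD, n = 3 each). The log2 fold change of miR-19b-3p was 0.68 (SE 0.12, edgeR adjusted p = 6.48e-04). How much of these arms came from each chromosome was not measured.

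That cluster, miR-106a-363, had 4 of its 10 listed arms in the table, with a summed level of 105 ± 7.56 CPM in ΔTUT4/7 and 70.6 ± 29.4 CPM in WT cells (SD, n = 3 each). Of its 3 tested arms only miR-19b-2-5p was called higher, and that rests on 21 counts in ΔTUT4/7 and 2 in WT libraries, whose reads cannot be separated from miR-19b-1-5p. miR-18b-5p had a log2 fold change of 0.71 (SE 0.31, edgeR adjusted p = 0.0828), and was called without WT replicate 3, at 1.29 (SE 0.15, edgeR adjusted p = 1.62e-04). miR-106a-5p, the homologue of miR-17-5p, was higher by 0.42 on the log2 scale without passing the test (SE 0.23, edgeR adjusted p = 0.160). Under the 2-fold limit in every setting, it had an adjusted p under 0.05 without WT replicate 3 (0.68, edgeR adjusted p = 0.0154), with the let-7-free totals (0.64, edgeR adjusted p = 0.0404) and with the GC trend removed (0.60, edgeR adjusted p = 0.0344).

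The other paralog, miR-106b-25, lies on chromosome 7 in an intron of MCM7 and encodes guides of the AAAGUGC and miR-92 seeds. None of its 6 arms was called in either direction, and their median log2 fold change was -0.09. All ΔTUT4/7 libraries were below all WT libraries for 2 of the 6 arms, miR-106b-5p and miR-25-3p, against 29.5% of all tested. They were above for 1 arm, miR-25-5p, against 28.8%. The following arms are given because they share their seeds with the cluster on chromosome 13.
hsa-miR-106b-5p: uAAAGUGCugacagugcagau
hsa-miR-93-5p: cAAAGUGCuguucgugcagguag
hsa-miR-25-3p: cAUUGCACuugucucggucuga
miR-93-5p was at 39536 ± 1695 CPM in ΔTUT4/7 and 42708 ± 5342 CPM in WT cells (SD, n = 3 each). Its log2 fold change was -0.11 (SE 0.11, edgeR adjusted p = 0.436) and turned to 0.11 with the let-7-free totals. miR-106b-5p fell by less than 2-fold (log2 fold change -0.66, standard error 0.23, edgeR adjusted p = 0.0336). Its highest WT library was replicate 3, at 1362 CPM against 743 and 719 CPM, and without it the value was -0.30 (edgeR adjusted p = 0.0764). With the let-7-free totals it was -0.44 (edgeR adjusted p = 0.130). miR-25-5p, the less abundant arm of miR-25, rose by 0.87 on the log2 scale (SE 0.17, edgeR adjusted p = 0.00174). It passed the 2-fold limit with the let-7-free totals (1.10, edgeR adjusted p = 3.10e-04) and without ΔTUT4/7 replicate 1 (1.00, edgeR adjusted p = 0.00191).

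**Figure D5:**
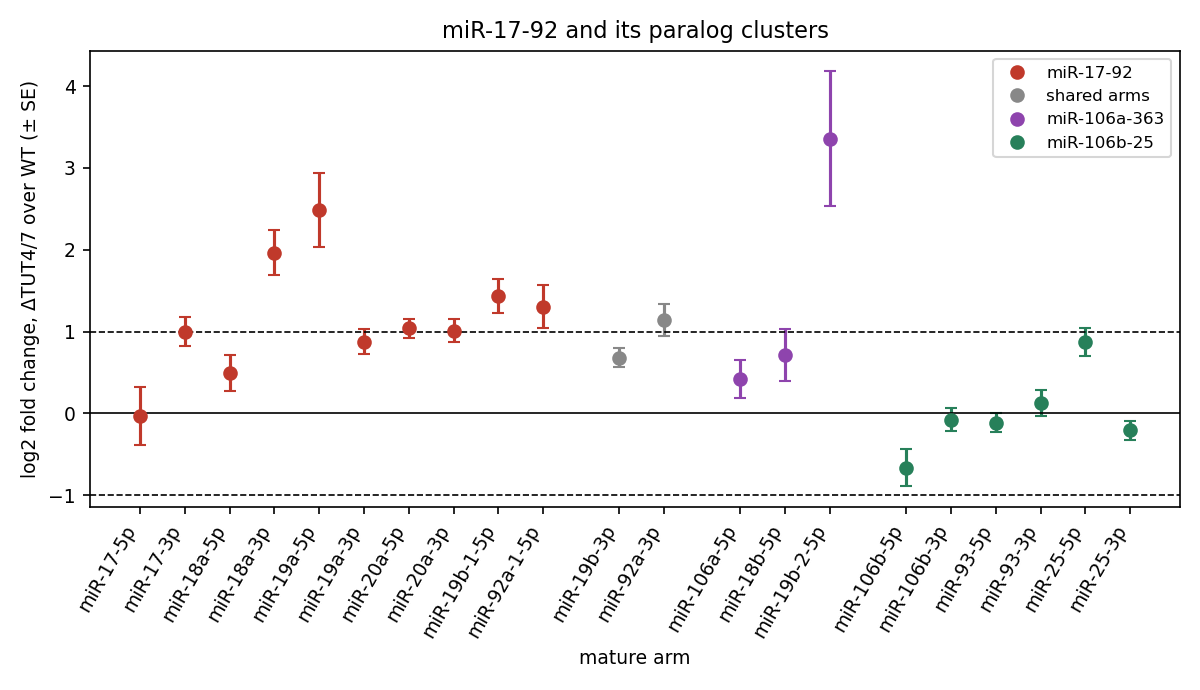
Fitted log2 fold change of ΔTUT4/7 over WT cells (± standard error) for the arms of miR-17-92, the shared arms and the tested arms of both paralog clusters, with dashed lines at the 2-fold limits. The miR-106b-25 arms lie between -0.66 and 0.87, and 9 of the 10 miR-17-92 arms lie between 0.49 and 2.49.

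A direct comparison with the paralogs was made from the log2 ratio of 2 arms within each library, which no library scaling can alter, for 4 pairs chosen after the values were seen. The ratio of miR-20a-5p to miR-106b-5p was 6.80, 6.66 and 6.92 in ΔTUT4/7 and 5.63, 5.31 and 4.47 in WT replicates 1, 2 and 3, higher by 1.65 (SE 0.35) with no overlap (2-sided exact permutation p = 0.1, the smallest possible, 0.4 adjusted over the 4 pairs). For miR-92a-1-5p against miR-25-5p the difference was 0.45 (SE 0.31, exact permutation p = 0.3, adjusted 0.6). For miR-17-5p it was 0.29 against miR-93-5p (SE 0.67, exact permutation p = 0.8) and -0.25 against miR-106a-5p (SE 0.34, exact permutation p = 0.7), both 0.8 after adjustment. Each of these differences changed sign with 1 library left out, the former ranging from -0.10 without WT replicate 1 to 0.94 without WT replicate 3 and the latter from -0.50 without WT replicate 1 to 0.07 without WT replicate 3. The difference for miR-92a-1-5p ranged from 0.20 without WT replicate 2 to 0.72 without WT replicate 3. That for miR-20a-5p ranged from 1.32 without WT replicate 3 to 1.90 without WT replicate 1. Its partner miR-106b-5p was itself lower in ΔTUT4/7 cells (log2 fold change -0.66), and miR-20a-5p was not set against miR-93-5p. The strains overlapped in the other 3 pairs.

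For the seed AAAGUGC as a whole, the 6 listed arms summed to 109995 ± 1277 CPM in ΔTUT4/7 and 79923 ± 6276 CPM in WT cells (SD, n = 3 each), a ratio of 1.38. miR-17-5p and miR-20a-5p made up 61.4% to 64.9% of this sum in ΔTUT4/7 and 41.0% to 49.99% in WT libraries, and miR-93-5p most of the rest. The seed GUGCAAA, carried by miR-19a-3p and miR-19b-3p, summed to 40256 ± 1790 CPM and 24083 ± 3394 CPM (SD, n = 3 each), a ratio of 1.67, of which miR-19a-3p was 31.2% to 34.4% in ΔTUT4/7 and 26.9% to 32.1% in WT libraries.

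The miRNAs whose pattern over the 6 libraries was most like the summed cluster came from other chromosomes. Likeness was the root mean square difference of log2(CPM + 1) after each profile's own mean was subtracted, over 382 other miRNAs with a mean above 10 CPM. The summed profile rests mostly on miR-20a-5p, which held 53.5% to 69.3% of the summed counts in the 6 libraries. The closest were miR-190a-5p (0.081), miR-5699-3p (0.107), miR-29c-5p (0.110), miR-501-5p (0.110) and miR-1250-5p (0.112). By the same measure the cluster's own arms ranged from 0.073 for miR-20a-3p to 0.709 for miR-18a-3p.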

How the data were processed

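The authors sequenced mature miRNAs of 3 ΔTUT4/7 and 3 WT samples, with libraries from the QIAseq miRNA Library Kit. Per the labels and the methods, reads were trimmed to 18 nt and aligned to hg38 with Bowtie 1.0.0. The deposited values are estimated counts on miRBase 22 mature miRNAs, made by the authors with the expectation-maximization quantification of Partek Flow 10.0.22, which divides reads that fit several miRNAs. They are whole numbers, and the highest counts, those of miR-16-5p, are rounded to 3 significant digits. Whether unique molecular identifiers were used is not stated in any source used here. A second deposited file holds the authors' own comparison (p-values, fold changes and means) and was not used.

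Samples were grouped by their titles. Counts were tested as deposited with edgeR 4.0.16 (glmQLFit and glmQLFTest, R 4.3.3), with column totals as library sizes, normalization factors of 1, miRNAs with a highest count above 7 (826 of 1000) and Benjamini-Hochberg adjustment over all tested. The standard error is the log2 fold change divided by the square root of F. The common dispersion was 0.0358. On simulated counts of this comparison for 774 miRNAs, 174 of 187 changed ones were recovered with 3 false calls. The planted changes were all larger than the 2-fold limit, and every miRNA was given the common dispersion. Recovery of arms near the limit, or with 1 library apart, was therefore not measured. Alternatives were TMM, RLE, DESeq2 1.42.0, totals without let-7 and miR-98, limma-trend (limma 3.58.1) on log2(CPM + 1), other low-count filters, a replicate block, each library left out, arms with the same first 18 nt summed, no limit on the adjusted p, and removal of the GC trend (lowess, span 0.5). CPM and permutation tests used Python 3.11.15, numpy 2.4.6 and pandas 2.3.3, and figures matplotlib 3.10.9.

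The arms named are the 10 members, the shared arms, the paralog arms and the 5 miRNAs most like the summed cluster. RefSeq (GRCh38.p14) gave a sequence for 897 of the 1000 miRNAs and all 10 members, whose starts equal the deposited ones. The deposited end is 1 past the RefSeq end, which is printed. The deleted genes are not measured in a miRNA library, so the labels were not checked against them. Within a strain, replicates differed beyond sampling noise (chi-square over its degrees of freedom 16.0 to 356). The members, lists and tests were chosen with earlier results of these data known.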

Additional observations from a re-analysis of the deposited data

How the results depend on the processing

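The number of arms called higher stayed between 4 and 8 with each library left out. It was 4 without WT replicate 2, against 113 of all 778 tested miRNAs, and 8 without WT replicate 1, against 136 of 821. Under the other settings it was between 5 (RLE, against 131 of 826) and 8 (GC trend removed, against 128 of 826). No arm was called lower in any of them. Over all tested miRNAs, between 81 of 826 (totals without let-7 and miR-98) and 120 of 826 (RLE) were called lower. miR-18a-3p, miR-19a-5p, miR-19b-1-5p and miR-92a-1-5p were called under all 16 settings of the fit, miR-20a-5p under 15 and miR-20a-3p under 13. With each library left out, the ratio of the summed CPM ranged from 1.72 to 1.96, and it was 1.91 with TMM and 1.81 with RLE. It was 2.17 when let-7 and miR-98 were left out of the totals. These totals moved the median over all tested miRNAs from 0.01 to 0.23 on the log2 scale and the share of calls that were higher from 54.8% to 69.3%. They called 8 arms higher, against 183 of 826 tested miRNAs. But 5 arms lay at least 1 above the median with either total, and miR-20a-5p was 1.03 above it in both. The log2 fold change of miR-17-5p (-0.03) turned positive with TMM (0.019), with totals without let-7 and miR-98 (0.19), with limma-trend (0.19), with the GC trend removed (0.064) and with the replicate block (0.21), and with each library left out it ranged from -0.32 to 0.74. Of the paralog arms, totals without let-7 and miR-98 turned miR-106b-3p from -0.08 to 0.15, miR-93-5p to 0.11 and miR-25-3p from -0.21 to 0.016. Removal of the GC trend turned miR-93-3p from 0.13 to -0.039, and miR-106b-3p ranged from -0.15 to 0.00094 with each library left out. The causes were not tested. Same-numbered replicates of the strains did not vary together (correlations of their deviations from the strain means of -0.17, -0.16 and -0.25 over 391 miRNAs), so the numbers were not taken as pairs. With the replicate number as a block, 7 arms were called higher, against 131 of 826 tested miRNAs, miR-17-3p (1.03) being added. The difference in 3p share ranged from 1.99 to 11.2 points for miR-17, from 2.53 to 4.18 for miR-18a, from -0.0541 to -0.0396 for miR-19a and from -0.090 to 0.038 for miR-20a with each library left out. Depth limits miR-19a-5p most, whose lowest libraries held 5 counts.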
